A study of Mus musculus with 12 samples.

Results

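Mitochondrial and peroxisomal fatty acid oxidation was followed through 32 genes: 4 acyl-CoA synthetases that activate fatty acids, 19 genes of the mitochondrial pathway, 6 of the peroxisomal pathway and 3 whose products work in both compartments. The members were chosen by gene symbol from textbook roles in these steps and mapped to Ensembl genes of the deposited count tables. All 32 were found among 41388 genes, and all 32 passed the filter on low counts, which left 12914 genes to be tested.

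RNA was sequenced from mouse peritoneal macrophages, cells drawn into the abdominal cavity with thioglycolate, harvested on day 4 and stimulated in culture 1 day after plating. The study asks how PPARγ, a nuclear receptor for fatty acids encoded by Pparg, bears on interleukin-1 release. Every group carried LysM-Cre, a recombinase driven from the myeloid lysozyme locus: 6 libraries were Cre controls and 6 were labelled PPARγ knockout with the same driver, so recombination was not expected in cells that never used that driver. In each genotype, 3 libraries came from cells given vehicle (albumin in buffered saline) and 3 from cells given 250 uM palmitate (a saturated fat) with 100 ng/ml bacterial endotoxin (LPS) for 8 h. The labels of the stimulated libraries name palmitate alone, while the series design adds LPS. The sources used here give neither age nor sex, and nothing says that the 3 libraries of a group came from separate mice, so the p-values measure the spread between these libraries, which may be technical.

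Fatty acids are burned only after they are joined to coenzyme A by acyl-CoA synthetases. Long chains then pass the inner mitochondrial membrane as carnitine esters, made by Cpt1a, carried by Slc25a20 and reversed by Cpt2, and are shortened in repeated rounds of dehydrogenation, hydration, a second dehydrogenation and thiolysis. Peroxisomes run the same chemistry on very long and branched chains with their own oxidases and multifunctional enzymes, and export shortened chains as carnitine esters through Crat and Crot. Alternatively activated macrophages are known for high fatty acid oxidation, and macrophages stimulated with LPS for a turn toward glycolysis.

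Pparg, the targeted gene, went against its label. Its CPM (counts scaled to a common library size with TMM factors, the unit of every level below unless RPKM is named) were 62.3, 61.6 and 61.0 in the control vehicle libraries and 111, 91.0 and 95.9 in the vehicle libraries labelled knockout. The groups did not overlap, and the difference on the log2 scale was 0.69 ± 0.11 (SE; adjusted p = 0.00124 by edgeR's quasi-likelihood test). After stimulation they were 3.63, 2.86 and 4.14 in controls and 3.59, 5.04 and 4.73 in those labelled knockout, which overlapped. Gene-level counts include exons outside any deleted stretch and do not check the deletion. The wording "labelled knockout" is kept throughout for this reason, and every genotype difference takes its direction from the label.

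Library totals ran from 17960457 to 22696385 counts. On the second principal component, which held 3.96% of the variance, the vehicle library labelled knockout with replicate number 1 stood at 31.8 and its group mates at -6.92 and -10.04. Ribosomal protein genes took 0.66% of its counts against 0.482% and 0.491%, and results that rest on it are given with and without it. Macrophage markers were all detected and summed to 6109 to 8843 CPM in the 12 libraries. Lyz2, the lysozyme gene whose locus drives the Cre, was at 18.7 to 30.5 CPM in vehicle and 80.9 to 120 CPM after stimulation. Adipocyte markers, a source of fatty acid oxidation transcripts in the abdominal cavity, summed to at most 0.054 CPM in every library, with 2 of the 5 at 0 counts throughout. In these bulk libraries fewer cells of a type and less RNA per cell cannot be told apart.

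Levels were compared between genes only as RPKM, the TMM-scaled CPM divided by exon length in kilobases. In the vehicle controls the 32 genes spanned from 1.06 ± 0.114 RPKM (SD, n = 3) for Ehhadh to 89.2 ± 7.26 for Etfb. The most abundant were Etfb, a subunit of the flavoprotein that carries electrons from acyl-CoA dehydrogenases, Ech1, an isomerase for unsaturated chains (72.4 ± 4.75), Acadl, the long-chain dehydrogenase (63.4 ± 0.223), and Acaa2, the thiolase of the matrix (63.1 ± 4.35). Acadl and Acaa2 did not differ beyond their spread, and neither did Hadh and Cpt2, at 12.9 ± 0.889 and 12.9 ± 0.488 RPKM. The least abundant were Ehhadh, Hadhb (2.54 ± 0.111) and Acsl3 (2.78 ± 0.284). Etfb is uncertain as a level, since 44.8% of the 50-base stretches of its transcripts were shared with other gene models, mainly Gm45233. The level of Hadhb is uncertain too, with 19.7% shared, mainly with Gm13910.

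Stimulation reordered these levels in the controls. Acadl became the most abundant of the 32 at 97.0 ± 3.69 RPKM, followed by Acsl5 at 67.4 ± 1.79 and Acot9 at 63.7 ± 1.44. Acsl1 moved from rank 28 of 32 to rank 8, and to rank 6 in the libraries labelled knockout. Hadh moved the other way, from rank 20 to rank 28 in controls. Ehhadh stayed lowest in all 4 groups, at 0.416 ± 0.142 RPKM in the stimulated libraries labelled knockout.

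**Figure D1:**
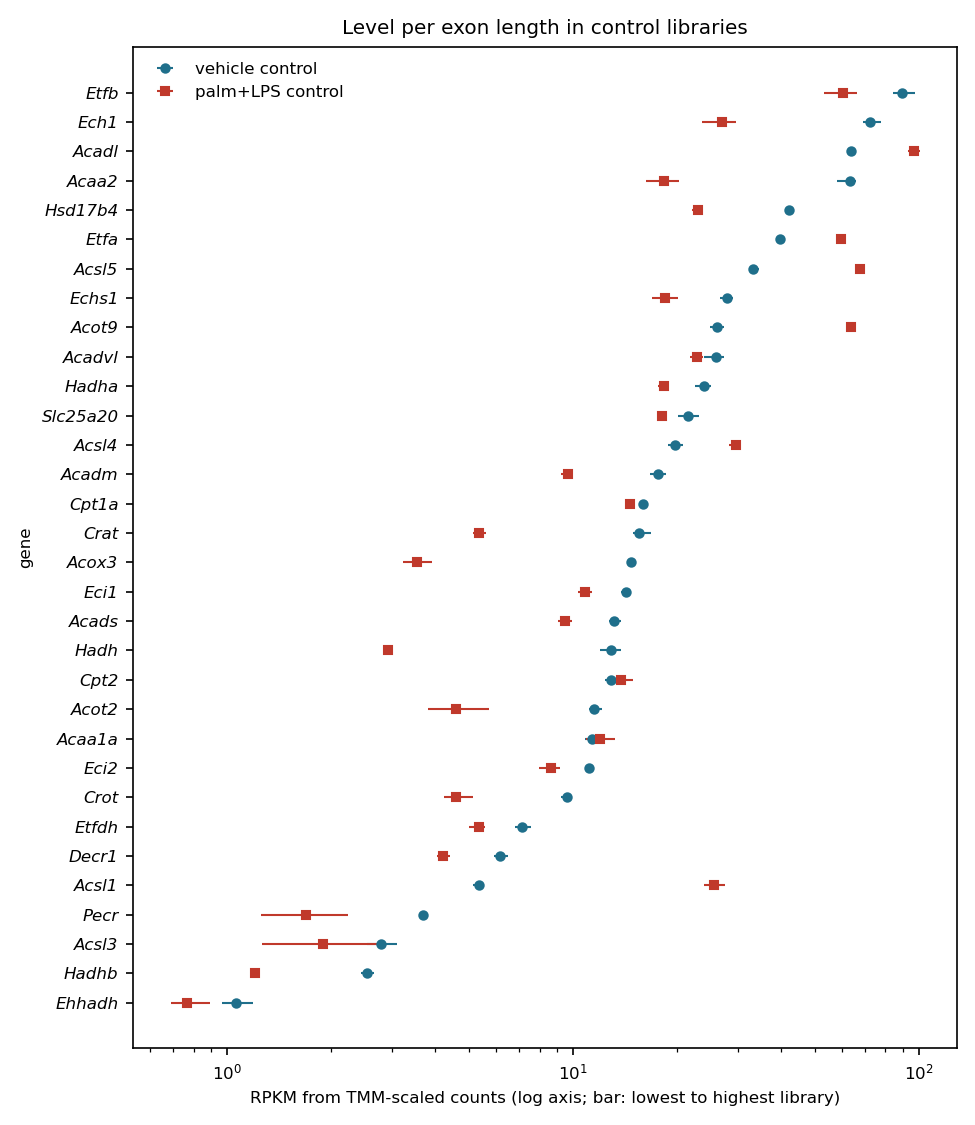
Mean RPKM of each of the 32 genes (y axis) on a log axis (x) in the 3 vehicle control libraries (blue circles) and the 3 palmitate plus LPS control libraries (red squares), with bars from the lowest to the highest library. Acadl, Acsl5, Acot9 and Acsl1 lie to the right after stimulation, and Hadh, Acox3 and Acaa2 far to the left.

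The first comparison was between genotypes in vehicle. Of the 32 members, 4 were lower in the libraries labelled knockout, 0 were higher and 28 did not pass the threshold, an adjusted p below 0.05 by edgeR. At an unadjusted p below 0.05, 6 were lower and 0 higher, and DESeq2 also called 4 lower and 0 higher. Over all genes tested, 3.8% were called, 2.11% higher and 1.69% lower, and the median log2 difference was 0.01, against -0.10 for the members. All 4 were mitochondrial: Cpt1a, Acadl, Hadha and Hadhb. Their products handle long chains, from the carnitine transferase through the long-chain dehydrogenase to both subunits of the trifunctional protein, a grouping made after the values were seen. Other members that handle long chains were not called, among them Cpt2 (0.09 ± 0.08), Slc25a20 (0.09 ± 0.08), Acadvl (-0.05 ± 0.08) and Acsl1 (-0.17 ± 0.13).

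Cpt1a (ENSMUSG00000024900, chromosome 19, 3323301 to 3385732, plus strand), which makes the carnitine esters that enter mitochondria, had 70.1, 68.5 and 66.8 CPM in the control vehicle libraries and 31.8, 49.0 and 47.3 CPM in those labelled knockout. Every library labelled knockout lay below every control, and the lowest was the library that stood apart. Cpt1a differed by -0.68 ± 0.12 on the log2 scale (edgeR adjusted p = 0.00308), and by -0.51 ± 0.07 without that library (edgeR adjusted p = 2.13e-06). The call was lost when only the 2 vehicle groups were fitted (Cpt1a edgeR adjusted p = 0.0807).

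Hadhb (ENSMUSG00000059447, chromosome 5, 30155248 to 30184593, plus strand), the thiolase subunit of the trifunctional protein, had 16.1, 17.5 and 16.6 CPM in the vehicle controls and 9.80, 9.71 and 8.04 CPM in the libraries labelled knockout. The groups were far apart, with a log2 difference of -0.87 ± 0.10 (edgeR adjusted p = 9.31e-05), the lowest of the 32. Hadha (ENSMUSG00000025745, chromosome 5, 30118301 to 30155162, minus strand), the hydratase and dehydrogenase subunit, had 120, 130 and 133 CPM against 88.5, 95.2 and 94.2 CPM. Its groups did not overlap either, and the difference was -0.47 ± 0.07 (edgeR adjusted p = 0.00112). Of Hadhb's 50-base stretches, 19.7% were shared with other gene models, mainly Gm13910, so its level is less certain than that of Hadha.

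Acadl (ENSMUSG00000026003, chromosome 1, 66830839 to 66863277, minus strand), the long-chain acyl-CoA dehydrogenase, had 127 CPM in each of the 3 vehicle controls and 90.2, 93.7 and 93.9 CPM in the libraries labelled knockout. The difference of -0.46 ± 0.07 (edgeR adjusted p = 0.000584) was larger than the spread of either group. The other dehydrogenases, for very long (Acadvl, -0.05 ± 0.08), medium (Acadm, -0.03 ± 0.09) and short chains (Acads, -0.25 ± 0.09), did not pass the threshold. Acadvl carries a limit of its own: 42.9% of its exon bases overlap Dvl2 on the opposite strand, and the sources used here do not say whether counting used strand.

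The start sites of these 4 genes, and of Echs1, which was called lower after stimulation, are shown because PPAR and its partner RXR bind a direct repeat of AGGTCA in promoters and enhancers. The windows are RefSeq's on GRCm38.p6, 250 bases before to 50 after the gene start, 300 bases each, 5′ to 3′ on the gene's strand, with capitals for AGGTCA or GGGCGG (a GC box, the motif of Sp1-type factors) read on either strand. The windows of Hadhb (chr5:30155003-30155302, plus) and Hadha (chr5:30154931-30155230, minus) share 228 bases, because both genes leave a common stretch of chromosome 5 in opposite directions with RefSeq starts 273 bases apart. The others are Cpt1a (chr19:3323051-3323350, plus), Acadl (chr1:66863260-66863559, minus) and Echs1 (chr7:140116372-140116671, minus).
Hadhb: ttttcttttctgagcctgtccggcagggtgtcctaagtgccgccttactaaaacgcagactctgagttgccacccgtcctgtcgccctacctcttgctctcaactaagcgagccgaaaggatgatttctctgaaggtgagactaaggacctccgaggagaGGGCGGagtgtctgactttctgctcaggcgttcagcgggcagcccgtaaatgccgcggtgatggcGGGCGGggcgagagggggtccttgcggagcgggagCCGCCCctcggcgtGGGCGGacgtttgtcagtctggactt
Hadha: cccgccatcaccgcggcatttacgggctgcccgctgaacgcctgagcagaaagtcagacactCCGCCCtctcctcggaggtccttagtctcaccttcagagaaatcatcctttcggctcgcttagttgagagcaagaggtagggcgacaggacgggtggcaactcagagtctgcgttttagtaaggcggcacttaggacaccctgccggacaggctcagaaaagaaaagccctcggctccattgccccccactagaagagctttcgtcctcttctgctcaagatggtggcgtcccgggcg
Cpt1a: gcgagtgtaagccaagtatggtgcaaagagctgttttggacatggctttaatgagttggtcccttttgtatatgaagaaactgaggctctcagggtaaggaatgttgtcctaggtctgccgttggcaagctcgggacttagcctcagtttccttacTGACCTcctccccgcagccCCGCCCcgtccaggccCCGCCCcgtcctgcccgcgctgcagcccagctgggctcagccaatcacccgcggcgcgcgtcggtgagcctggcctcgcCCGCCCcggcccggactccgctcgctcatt
Acadl: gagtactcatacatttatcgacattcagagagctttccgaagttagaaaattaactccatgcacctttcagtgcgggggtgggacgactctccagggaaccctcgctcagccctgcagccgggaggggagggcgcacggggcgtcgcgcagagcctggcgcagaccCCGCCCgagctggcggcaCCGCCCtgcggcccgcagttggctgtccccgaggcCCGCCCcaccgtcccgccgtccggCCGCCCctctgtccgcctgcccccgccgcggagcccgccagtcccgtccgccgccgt
Echs1: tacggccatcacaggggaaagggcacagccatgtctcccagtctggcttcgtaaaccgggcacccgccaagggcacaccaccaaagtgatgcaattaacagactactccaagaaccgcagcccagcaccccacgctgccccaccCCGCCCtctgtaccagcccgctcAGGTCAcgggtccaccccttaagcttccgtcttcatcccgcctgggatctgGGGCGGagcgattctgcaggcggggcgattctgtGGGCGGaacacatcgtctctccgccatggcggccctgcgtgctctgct

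Cpt1a and Echs1 hold AGGTCA once each, 94 and 83 bases before the start, and Hadhb, Hadha and Acadl hold it nowhere in these windows. A window was found for 28 of the 32 members, all but Crat, Decr1, Hsd17b4 and Acaa2. AGGTCA, searched on both strands, was in 4 of the 28 (14.3%; Acadm, Acadvl, Cpt1a and Echs1) and in 16.3% of 32851 windows of the same length. The full repeat, AGGTCA and again AGGTCA in the same direction with 1 base between, which contains the single motif, was in 0 of the 28 and in 0.0396% of all windows, and a looser repeat of AGGNCA was in 0 and 0.381%. GGGCGG was in 23 of the 28 (82.1%) and in 35.7% of all windows, with 4 copies in the Acadl window and 4 in that of Hadhb. The all-window shares cover genes whether or not they were expressed here and were not matched for base composition. Members all passed the filter on low counts, and the printed windows held 58.7% to 70.3% G and C. Member shares count genes (28, with 29 windows), and the others count windows. All these matches are of letters and not sites of binding.

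Hadha and Hadhb encode subunits of a single complex and were compared per length. The ratio of Hadhb to Hadha RPKM was 0.106 ± 0.00480 (SD, n = 3) in the vehicle controls and 0.0805 ± 0.0104 in the vehicle libraries labelled knockout. After stimulation it was 0.0656 ± 0.00287 and 0.0546 ± 0.00293. The groups did not overlap in either pair, with 0.101 as the lowest vehicle control and 0.0897 as the highest vehicle library labelled knockout. The size of the ratio is uncertain, since 19.7% of the 50-base stretches of Hadhb were shared with other gene models, against 0.341% of those of Hadha.

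No peroxisomal member was called in vehicle (0 of 6 by edgeR; median -0.11), nor any of the 3 shared genes or the 4 synthetases. At an unadjusted p below 0.05 these 3 groups also held 0 calls, and DESeq2 called 0 of the 6 peroxisomal members. Acaa1a, the peroxisomal thiolase, had 51.4, 50.7 and 47.9 CPM in controls and 13.8, 46.8 and 52.0 CPM in the libraries labelled knockout. Its low value sat in the library that stood apart, the others were close to the controls, and the difference was -0.41 ± 0.34 (these values were picked after they were seen). Acaa1a is also uncertain because 17.1% of its 50-base stretches were shared, mainly with Acaa1b. Without the library that stood apart, 7 members were lower, with Acaa2, Ech1 and Etfb added to the 4, and over all genes 431 were higher and 358 lower against 273 and 218 with it.

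Markers of other cells and of RNA quality were compared in the same libraries. Mitochondrially encoded transcripts had 0 of 8 tested genes called in vehicle by edgeR (1 lower at an unadjusted p below 0.05), and 6 of 8 lower with a median of -0.26 without the library that stood apart. Fibroblast and mesothelial markers (10 genes) summed to 118 to 138 CPM in controls and 152 to 196 CPM in the libraries labelled knockout, with 0 of 10 called by edgeR and 2 of 10 higher at an unadjusted p below 0.05. Neutrophil markers (7 genes) summed to 88.3 to 90.9 CPM against 117 to 120 CPM, with 2 of 5 tested genes higher and 1 lower. Of the 7, S100a9 and Ly6g were at or near 0, and the sum came from the others. The part of these in the results was not tested.

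The second comparison was between genotypes after palmitate plus LPS. Of the 32, 10 were lower in the libraries labelled knockout, 2 were higher and 20 were not called, with a median of -0.21. Over all genes 16.1% were called, 10% higher and 6.1% lower, with a median of -0.01. The lower genes were 6 of 19 mitochondrial (Echs1, Hadh, Acaa2, Acadm, Eci1 and Acot2), 2 of 6 peroxisomal (Hsd17b4 and Ehhadh) and 2 of the 3 shared (Crat and Eci2), and the higher ones Acsl1 and Cpt1a. The vehicle and stimulated comparisons share no library, and the 4 genes lower in vehicle and the 10 lower here had 0 in common, while Cpt1a was called in both, in opposite directions. Over all genes the lower calls had 49 in common, 22.5% of those in vehicle and 6.22% of those after stimulation. Without the vehicle library that stood apart, 3 members were lower in both comparisons (Acaa2, Ech1 and Etfb), 42.9% of 7 and 20% of 15. Over all genes 358 were then lower in vehicle and 1829 after stimulation. Their overlap was not counted without that library, so these member shares have no all-gene share to be read against. Scaling by total counts turned the split to 0 higher and 15 lower for members, and from 1293 higher and 788 lower to 841 and 1578 for all genes.

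Of the 5 genes of the hydratase, hydroxyacyl-CoA dehydrogenase and thiolase steps in the matrix, 3 were lower. Echs1 (ENSMUSG00000025465, chromosome 7, 140105710 to 140116476, minus strand), the short-chain enoyl-CoA hydratase, had 89.5, 106 and 95.7 CPM in stimulated controls and 69.7, 64.5 and 67.5 CPM in those labelled knockout. The groups did not overlap, and the difference was -0.53 ± 0.10 (edgeR adjusted p = 0.00213). Hadh, the 3-hydroxyacyl-CoA dehydrogenase that follows, had 14.5, 14.2 and 14.9 CPM against 10.2, 12.5 and 10.04 CPM (-0.41 ± 0.11, edgeR adjusted p = 0.0193). Acaa2, the thiolase that closes the round, had 24.6, 30.8 and 27.9 CPM against 20.2, 21.4 and 20.5 CPM (-0.42 ± 0.12, edgeR adjusted p = 0.0287). All 3 kept their groups apart, but the Hadh call was lost without control replicate 3 or replicate 1 or 3 labelled knockout (edgeR adjusted p up to 0.0927), and the Acaa2 call without any stimulated library but control replicate 1 (up to 0.128) and with the replicate block (0.0591).

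Acadm, the medium-chain dehydrogenase, had 27.0, 28.9 and 29.2 CPM in stimulated controls and 20.8, 22.6 and 23.9 CPM in those labelled knockout, a difference of -0.34 ± 0.09 (edgeR adjusted p = 0.0212, up to 0.099 when control replicate 2 or 3, or replicate 1 or 2 labelled knockout, was left out). Eci1 (ENSMUSG00000024132, chromosome 17, 24426683 to 24439316, plus strand), which shifts double bonds of unsaturated chains, had 11.8, 12.4 and 11.3 CPM against 7.47, 7.43 and 7.62 CPM. This difference, -0.65 ± 0.11 (edgeR adjusted p = 0.000589), had the smallest adjusted p of the 32 in this comparison. Acot2, a matrix thioesterase that frees acyl groups from coenzyme A, had 12.6, 8.36 and 9.22 CPM against 4.12, 7.37 and 5.73 CPM (-0.80 ± 0.18, edgeR adjusted p = 0.00627). Acot2 spread more within groups than the enzymes above, and 27.7% of its 50-base stretches were shared, mainly with its neighbour Acot1.

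In peroxisomes the 2 multifunctional enzymes were lower. Hsd17b4, which hydrates and dehydrogenates very long and branched chains, had 78.7, 75.3 and 80.0 CPM in stimulated controls and 62.0, 65.2 and 62.3 CPM in those labelled knockout (-0.30 ± 0.07, edgeR adjusted p = 0.00943). Ehhadh, the other multifunctional enzyme and the least abundant member, had 2.16, 2.70 and 2.07 CPM against 1.35, 1.63 and 0.788 CPM (-0.88 ± 0.24, edgeR adjusted p = 0.0211). Both kept their groups apart, but the Ehhadh call was lost without control replicate 2 or replicate 3 labelled knockout (edgeR adjusted p = 0.0923 and 0.101) and the Hsd17b4 call without control replicate 3 (0.0505). The oxidase Acox3 (0.22 ± 0.12), the thiolase Acaa1a (0.12 ± 0.34), the reductase Pecr (-0.35 ± 0.25) and the carnitine transferase Crot (-0.05 ± 0.11) did not pass the threshold.

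Crat (ENSMUSG00000026853, chromosome 2, 30400471 to 30415813, minus strand), the carnitine acetyltransferase of both compartments, had 30.2, 27.7 and 28.7 CPM against 19.8, 22.9 and 20.7 CPM in the libraries labelled knockout. The difference of -0.45 ± 0.09 (edgeR adjusted p = 0.00342) passed the threshold in all 18 other settings run. Eci2, an isomerase found in both compartments, had 20.8, 24.0 and 22.7 CPM against 18.5, 16.4 and 15.7 CPM (-0.42 ± 0.12, edgeR adjusted p = 0.0254). The Eci2 call was lost without replicate 2 or 3 of either stimulated group (edgeR adjusted p up to 0.105). Ech1, the third shared gene, stood at -0.35 ± 0.12 (edgeR adjusted p = 0.067).

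Cpt1a and Acsl1, at the entry to the pathway, went the other way. Cpt1a had 61.5, 62.7 and 64.4 CPM in stimulated controls and 86.3, 86.1 and 89.5 CPM in those labelled knockout, the reverse of its order in vehicle. Its groups lay far apart beside spreads of 1.44 and 1.91 CPM (SD), and the difference was 0.47 ± 0.12 (edgeR adjusted p = 0.0132). Acsl1 (ENSMUSG00000018796, chromosome 8, 46471041 to 46536051, plus strand), a long-chain acyl-CoA synthetase, had 260, 227 and 237 CPM against 286, 341 and 341 CPM (0.42 ± 0.12, edgeR adjusted p = 0.0317). Both calls rest on the scaling: with total counts they were lost (edgeR adjusted p = 0.0762 for Cpt1a and 0.145 for Acsl1), the Cpt1a call was also lost when control replicate 1 or 2, or replicate 3 labelled knockout, was left out (up to 0.0559), and the Acsl1 call without any stimulated library but replicate 1 labelled knockout (up to 0.124).

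Leaving out the vehicle library that stood apart left the Cpt1a difference at 0.47 and took its SE from 0.12 to 0.06, and 15 members were then lower and 3 higher. Calls rose over all genes too, from 1293 higher and 788 lower to 2251 and 1829. Fibroblast and mesothelial markers summed to 125 to 144 CPM in stimulated controls and 184 to 335 CPM in those labelled knockout, with 6 of 10 higher. The neutrophil list summed to 123 to 135 against 154 to 192 CPM, with 2 of 5 tested genes higher and 1 lower. Mitochondrially encoded transcripts took 0.417% to 0.468% of counts in controls and 0.327% to 0.345% in the libraries labelled knockout, with 1 of 8 tested genes lower, and 5 of 8 without the vehicle library that stood apart. Of 30 ribosomal protein genes, 1 was lower and 0 higher, and 12 lower and 1 higher without it. The part of these in the results was not tested.

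**Figure D2:**
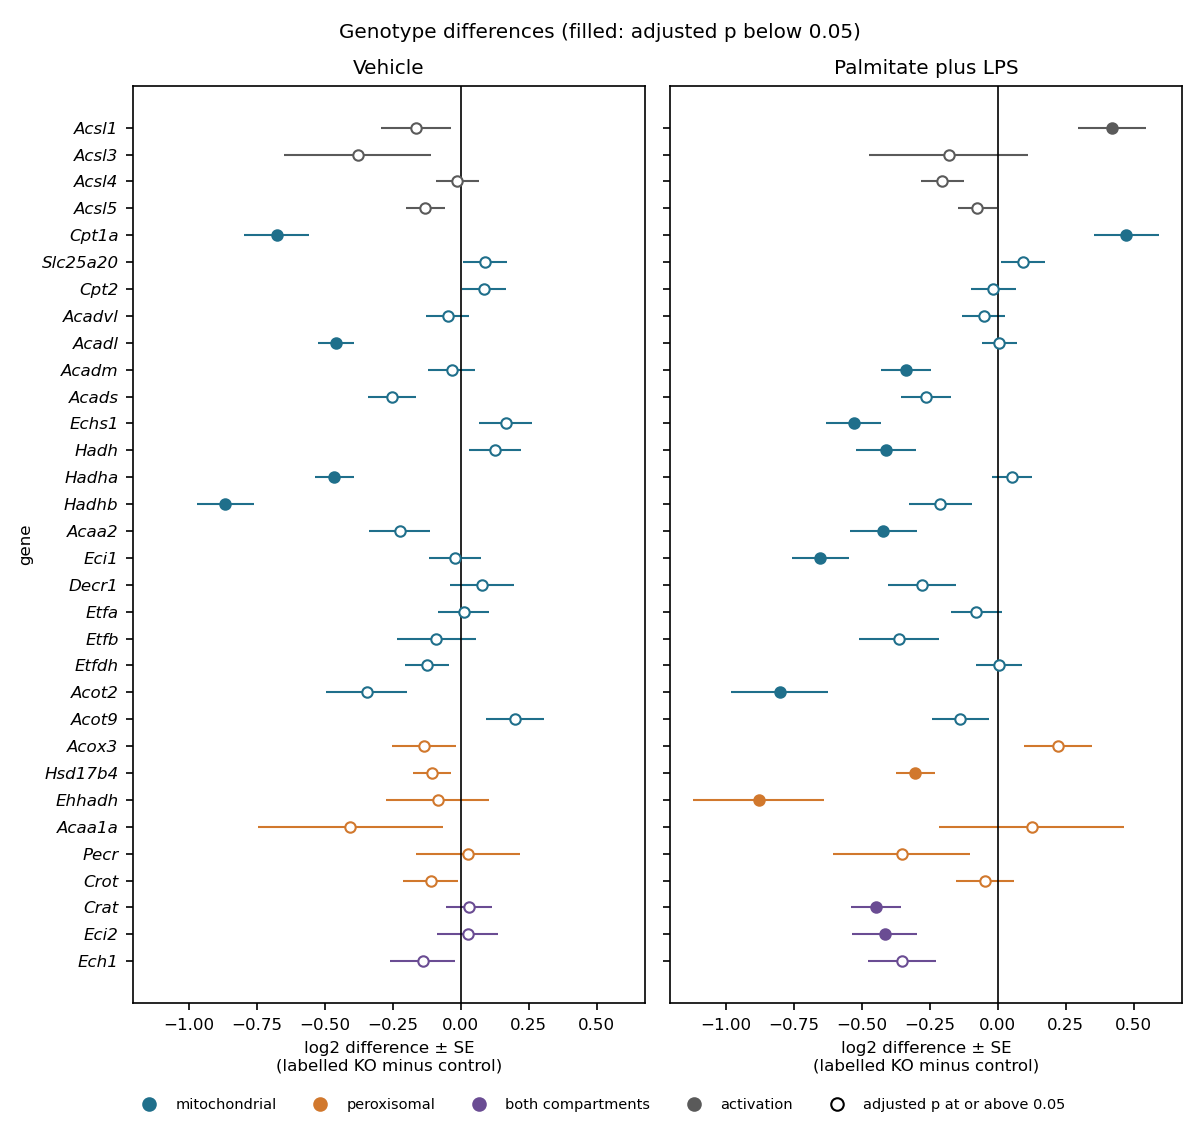
Log2 difference between libraries labelled knockout and controls (x axis, with SE) for the 32 genes (y axis, coloured by compartment) in vehicle (left) and palmitate plus LPS (right), filled where the edgeR adjusted p was below 0.05. Filled points on the left are Cpt1a, Acadl, Hadha and Hadhb, and Cpt1a changes side on the right, where 10 other genes are filled below 0.

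The third comparison was the response to palmitate plus LPS in controls. Most of the module fell: 21 of 32 members were lower, 6 higher and 5 not called, with a median log2 response of -0.47. Over all genes 66.7% were called, 32% higher and 34.7% lower, and the median was -0.05. The falls were largest for Hadh, Acox3, Acaa2 and Crat, and the rises for Acsl1, Acot9 and Acsl5. With total-count scaling the median of all genes shifted to -0.38 and 2644 genes were higher and 6416 lower, against 4132 and 4480, and the members then split into 6 higher and 25 lower around a median of -0.80. The same 6 members rose under both scalings.

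Of the 4 synthetases of the activation step, 3 rose. Acsl1 had 48.6, 52.3 and 50.8 CPM in vehicle controls and 260, 227 and 237 CPM after stimulation, a response of 2.25 ± 0.13 (edgeR adjusted p = 3.21e-10). No stimulated library came near the vehicle range. Acsl5 (1.02 ± 0.07), a synthetase of mitochondria and endoplasmic reticulum, and Acsl4 (0.58 ± 0.08), which prefers arachidonate, also rose, while Acsl3 stood at -0.55 ± 0.28 and was not called. The carnitine shuttle moved little: Slc25a20, the carrier, fell by 0.26 ± 0.08, and Cpt1a (-0.12 ± 0.12) and Cpt2 (0.10 ± 0.08) were not called.

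Inside mitochondria the steps of a round split. Acadl rose from 127 CPM in each vehicle control to 187, 201 and 196 CPM (0.61 ± 0.07, edgeR adjusted p = 5.94e-07), while the other 3 dehydrogenases fell: Acadm by 0.87 ± 0.09, Acads by 0.48 ± 0.09 and Acadvl by 0.19 ± 0.08. The Acadvl call was lost in 13 of 18 other settings. All 5 enzymes of the hydratase, hydroxyacyl-CoA dehydrogenase and thiolase steps fell. Hadh had 59.6, 64.6 and 68.4 CPM in vehicle and 14.5, 14.2 and 14.9 CPM after stimulation (-2.14 ± 0.10, edgeR adjusted p = 3.37e-11), the lowest response of the 32. Acaa2 went from 88.0, 99.0 and 99.8 CPM to 24.6, 30.8 and 27.9 CPM (-1.78 ± 0.12, edgeR adjusted p = 1.79e-09). Hadhb fell by 1.08 ± 0.11, Echs1 by 0.59 ± 0.10 and Hadha by 0.39 ± 0.07.

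The electron transfer chain of these dehydrogenases also split. Etfa, a subunit of the electron transfer flavoprotein, rose by 0.59 ± 0.09, whereas its partner Etfb (-0.57 ± 0.15) and Etfdh (-0.41 ± 0.08), the oxidoreductase that passes the electrons on to ubiquinone, fell. The thioesterases went opposite ways, with Acot9 at 1.29 ± 0.11 and Acot2 at -1.32 ± 0.16, both called. Decr1, the reductase for unsaturated chains, and Eci1 fell by 0.55 ± 0.12 and 0.39 ± 0.10.

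Among peroxisomal members 4 of 6 fell and 0 rose by edgeR or DESeq2 (5 and 0 at an unadjusted p below 0.05). Acox3, an oxidase of branched chains, had 131, 137 and 133 CPM in vehicle controls and 35.5, 29.4 and 31.9 CPM after stimulation (-2.05 ± 0.12, edgeR adjusted p = 5.61e-10). Every stimulated library lay far below every vehicle library. Crot (-1.07 ± 0.10), Pecr (-1.13 ± 0.21) and Hsd17b4 (-0.87 ± 0.07) fell, and Acaa1a (0.08 ± 0.34) and Ehhadh (-0.47 ± 0.20, edgeR adjusted p = 0.0511) were not called. All 3 shared genes fell: Crat by 1.54 ± 0.09, Ech1 by 1.43 ± 0.12 and Eci2 by 0.37 ± 0.11.

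Side by side, the median response of controls was -0.41 for the 19 mitochondrial members (14 lower, 3 higher), -0.97 for the 6 peroxisomal members and -1.43 for the 3 shared genes, against -0.05 for all genes; the compartments were not tested against each other. Summed CPM, which weights abundant genes most, told the levels: mitochondrial members summed to 1213 ± 49.2 CPM (SD, n = 3) in vehicle controls and 1075 ± 34.9 CPM after stimulation, and peroxisomal members to 388 ± 3.32 and 193 ± 10.002 CPM. The shared genes went from 278 ± 16.1 to 113 ± 7.41 CPM, and the synthetases from 274 ± 8.93 to 621 ± 28.6 CPM. In the libraries labelled knockout the mitochondrial sum went from 1111 ± 96.9 to 1007 ± 3.12 CPM and the peroxisomal sum from 349 ± 55.6 to 186 ± 5.28 CPM. The vehicle replicate that stood apart was the highest of its group for the first, at 1222 CPM against 1072 and 1040 CPM. For the peroxisomal sum it was the lowest, at 285 CPM against 381 and 382 CPM. The wider lists showed another order: of 16 other peroxisomal oxidation genes 13 fell with a median of -0.69, and of 10 other mitochondrial oxidation genes and thioesterases 8 fell with a median of -1.03.

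**Figure D3:**
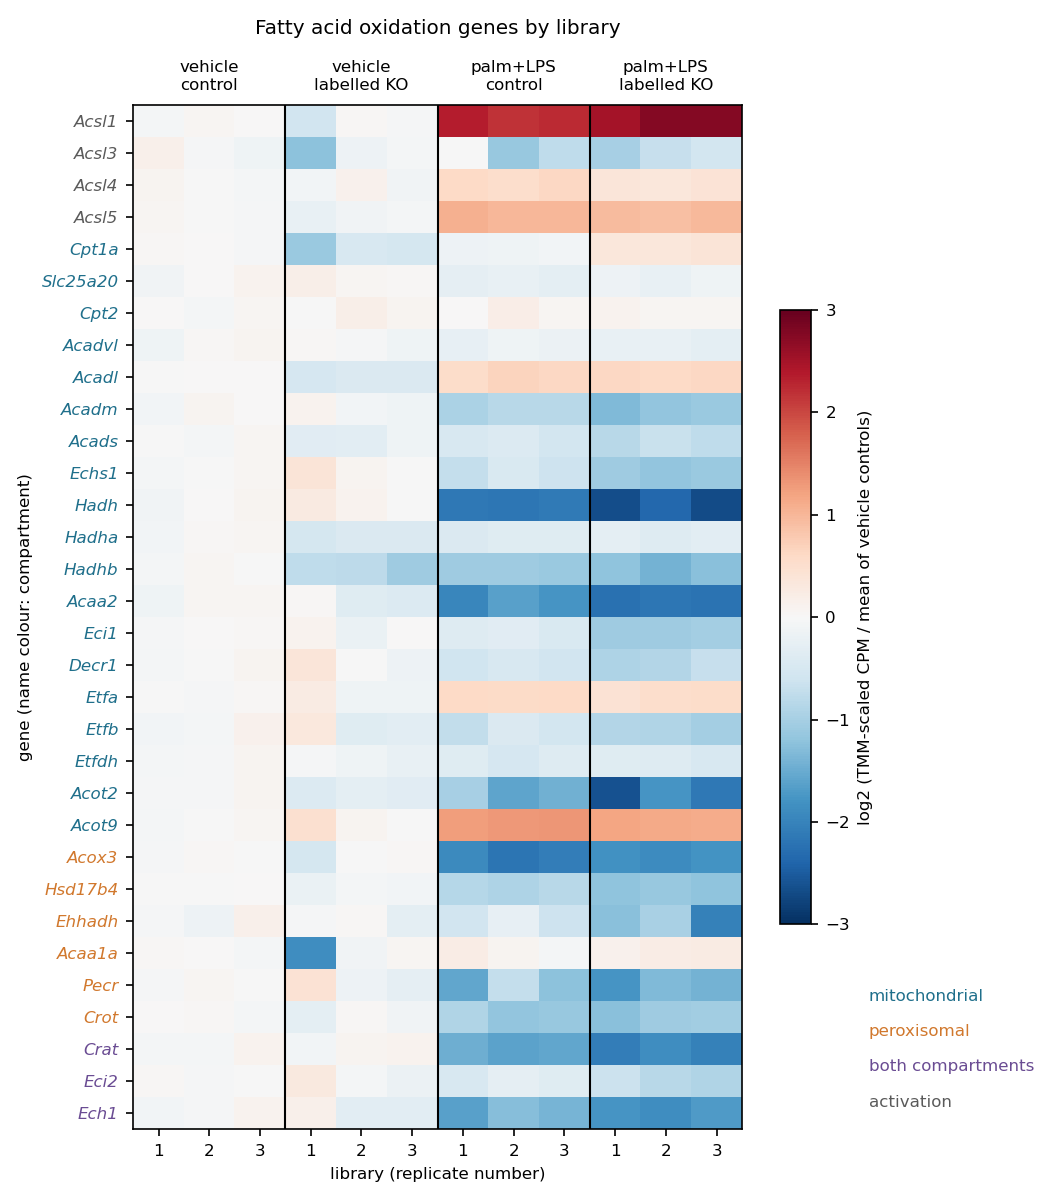
Log2 ratio of TMM-scaled CPM to the vehicle control mean (colour) for the 32 genes (rows, names coloured by compartment) in the 12 libraries (columns, replicate numbers under each group). Acsl1, Acsl5, Acot9 and Acadl are red in all 6 stimulated libraries and Hadh, Acaa2, Acox3 and Crat blue, and Acaa1a is blue in a single vehicle library labelled knockout.

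The fourth comparison was the response of the libraries labelled knockout. There 21 of 32 members fell, 7 rose and 4 were not called, with a median of -0.65 and an all-gene median of -0.06. Over all genes 69.4% were called, 33.7% higher and 35.6% lower, and with total-count scaling 2676 genes were higher and 6570 lower against 4356 and 4600. The treatment comparisons of the genotypes share no library: of the 21 members that fell in each, 20 fell in both, and all 6 that rose in controls were among the 7 that rose here. Over all genes the shared calls made up 82% of the lower and 84.4% of the higher calls of controls, and 79.9% and 80.1% of those labelled knockout. The seventh was Cpt1a, at 1.03 ± 0.12 (edgeR adjusted p = 1.42e-06), and Ehhadh fell here (-1.26 ± 0.23) while Hadha did not pass the threshold (0.13 ± 0.07). With total-count scaling 2 of the 7 rises were lost, Acsl4 and Etfa (edgeR adjusted p = 0.85 and 0.115), and Cpt2 and Hadha were newly called. Acsl1 rose by 2.84 ± 0.13, from 33.8, 51.5 and 49.7 CPM to 286, 341 and 341 CPM.

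By compartment, 13 of 19 mitochondrial members fell and 4 rose (median -0.42), 5 of 6 peroxisomal members fell and 0 rose (median -1.17), and all 3 shared genes fell (median -1.64). Hadh fell by 2.68 ± 0.11 and Crat by 2.02 ± 0.09, and Acaa2 stood at -1.98 ± 0.12 and Acox3 at -1.70 ± 0.12. Mitochondrially encoded transcripts took 0.759% to 0.809% of counts in vehicle controls and 0.566% to 0.843% in vehicle libraries labelled knockout, above the stimulated shares given earlier, and 7 and 6 of the 8 tested genes fell. Treatment also raised 14 of 30 ribosomal protein genes and lowered 0 in controls, and raised 4 and lowered 4 in the libraries labelled knockout. Without the vehicle library that stood apart these counts were 20 raised and 1 lowered in controls, and 10 and 3 in those labelled knockout. Of the 10 fibroblast and mesothelial markers, 6 fell and 1 rose in controls. The part of these in the results was not tested.

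**Figure D4:**
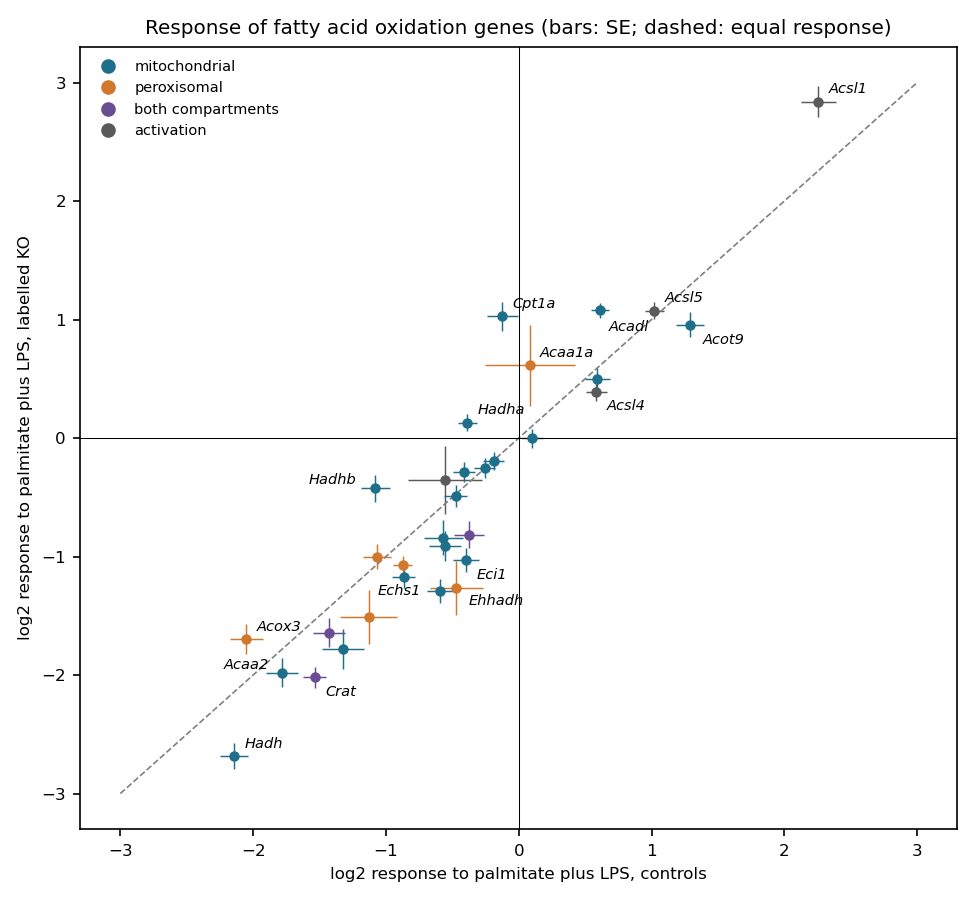
Log2 response to palmitate plus LPS in controls (x axis) and in libraries labelled knockout (y axis) for the 32 genes, with SE bars and the line of equal response dashed. Most genes lie near the line. Of the genes called in the interaction, Cpt1a, Acadl, Hadha and Hadhb lie above it and Echs1, Eci1, Hadh and Crat below. Acsl1 (0.59) and Ehhadh (-0.80), which were not called, lie further from the line than Acadl and Hadha.

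The interaction asks whether the response itself differed between genotypes. It was called for 8 of 32 members, 4 with a higher response in the libraries labelled knockout and 4 with a lower one, and 24 were not called. Over all genes 8.05% were called, 4.7% higher and 3.35% lower, and with total-count scaling the split went from 607 higher and 432 lower to 388 and 788. The mitochondrial members held 7 of the 8 (4 higher and 3 lower), the shared genes Crat, and the peroxisomal members 0 of 6 (1 of 6, lower, at an unadjusted p below 0.05; 0 by DESeq2). The higher 4 were Cpt1a, Acadl, Hadha and Hadhb, and the lower 4 Echs1, Hadh, Eci1 and Crat. The interaction reuses the libraries of both genotype comparisons, so these calls are not independent of theirs. The higher 4 were the 4 lower in vehicle, and the lower 4 were all among the 10 lower after stimulation.

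Cpt1a differed most, by 1.15 ± 0.17 (edgeR adjusted p = 0.0012): it was not called in controls and rose 2.04-fold in the libraries labelled knockout. Without the vehicle library that stood apart the difference was 0.98 ± 0.09. Hadhb differed by 0.65 ± 0.16 (edgeR adjusted p = 0.0202, lost in 4 of 17 other settings, up to 0.0648), and its mean fell from 16.7 to 7.92 CPM in controls and from 9.19 to 6.84 CPM in those labelled knockout, so the genotypes stood closer after stimulation than before. Hadha (0.52 ± 0.10) and Acadl (0.46 ± 0.09) were not called between genotypes after stimulation, with Acadl at 195 ± 7.40 CPM in controls and 195 ± 1.55 CPM in those labelled knockout. Acsl1, with a difference in response of 0.59, was not called in the interaction. DESeq2, the fit with no filter and the fits without each vehicle library labelled knockout did call it.

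Of the lower responses, Echs1 differed by -0.70 ± 0.14 (edgeR adjusted p = 0.00899). Its vehicle values were 140, 146 and 153 CPM in controls and 192, 156 and 145 CPM in those labelled knockout, where the high value belonged to the library that stood apart, and without it the difference was -0.57 ± 0.10. Eci1 differed by -0.63 ± 0.14, with means of 15.5 and 15.3 CPM in vehicle and 11.8 and 7.51 CPM after stimulation. Hadh (-0.54 ± 0.15, edgeR adjusted p = 0.0355) and Crat (-0.48 ± 0.12, edgeR adjusted p = 0.0294) were nearer the threshold, and each was lost in 8 of 17 other settings (edgeR adjusted p up to 0.104 and 0.0898). With replicate number as a block both were lost (edgeR adjusted p = 0.0766 and 0.0613), which left 2 members lower.

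**Figure D5:**
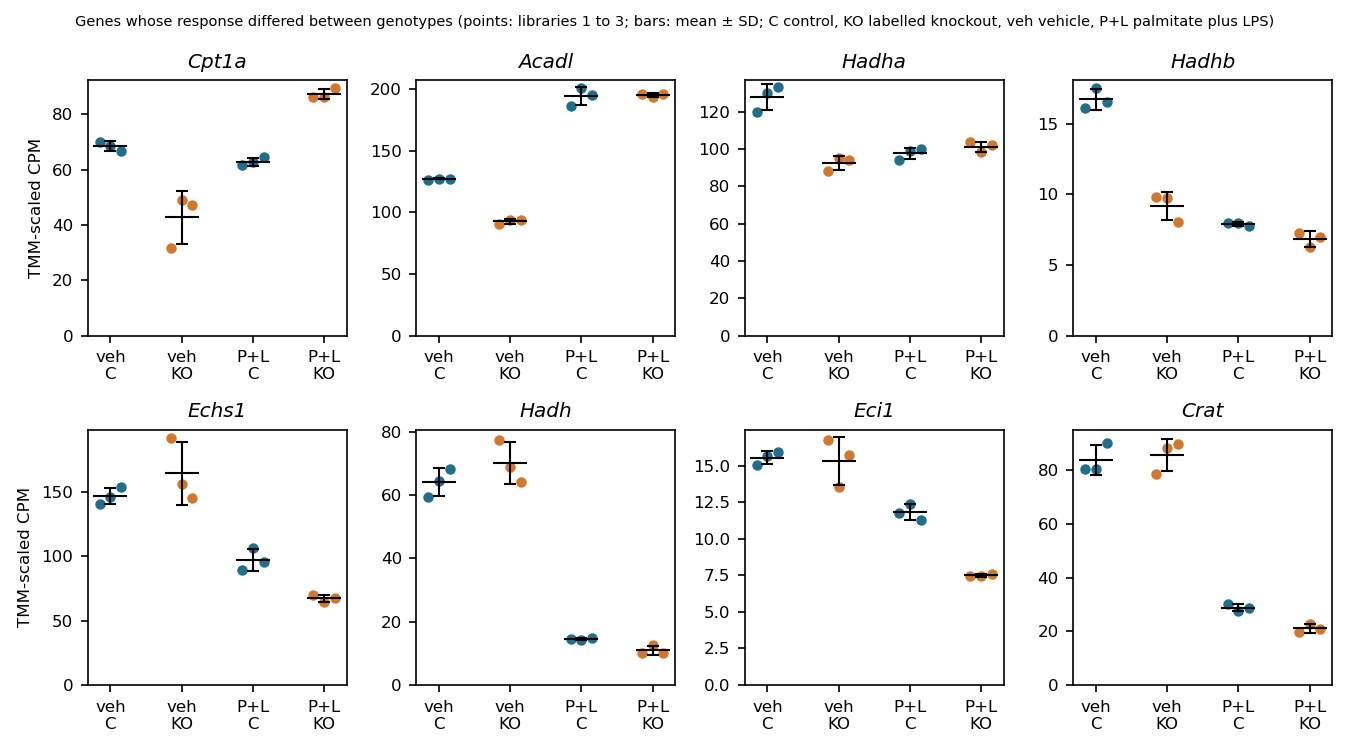
TMM-scaled CPM (y axis, from 0) in each library (points) with mean and SD for the 8 genes called in the interaction, in vehicle (veh) and palmitate plus LPS (P+L), controls (C, blue) and libraries labelled knockout (KO, orange). In vehicle the labelled knockout libraries of the upper row (Cpt1a, Acadl, Hadha and Hadhb) lie below the controls, after stimulation those of Cpt1a lie above and those of Hadhb still below, and in the lower row they start level and end lower.

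Genes that bring fatty acids to the pathway were read as a list of their own. Of 11 tested entry, binding and activation genes, 1 was lower in vehicle and 2 were lower after stimulation in the libraries labelled knockout, with 0 higher in either by edgeR (1 and 0 at an unadjusted p below 0.05). The lower calls were 9.09% and 18.2% of the list, against 1.69% and 6.1% of all genes. Cd36, a fatty acid receptor, differed by -0.90 ± 0.08 and -0.91 ± 0.08, and Dbi, which binds acyl-CoA, by -0.70 ± 0.17 after stimulation. Treatment of controls lowered 5 of the 11 and raised 1, Fabp3, a fatty acid binding protein, by 5.70 ± 0.15, while the transporter Slc27a1 fell by 1.76 ± 0.09. Over all genes 34.7% fell and 32% rose.

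Other mitochondrial oxidation genes had 0 of 10 called in vehicle by edgeR (1 higher and 1 lower at an unadjusted p below 0.05) and 1 lower after stimulation by genotype, Oxct1, which activates ketone bodies (-0.40 ± 0.07). In controls treatment lowered 8 of the 10 and raised 2, with Oxct1 at -2.19 ± 0.07 and the thioesterase Acot7 at 2.41 ± 0.15. Of 16 other peroxisomal oxidation genes, 1 was lower in vehicle, Abcd2, a transporter of very long chains (-1.04 ± 0.16). After stimulation 3 were lower and 2 higher: catalase (Cat, -0.43 ± 0.08), the racemase Amacr (-0.67 ± 0.14) and the lyase Hacl1 (-0.80 ± 0.16) were lower, and Phyh, which starts the breakdown of branched chains, was higher (0.70 ± 0.11), as was the transporter Abcd3 (0.31 ± 0.09), named after its value was seen. Treatment of controls lowered 13 and raised 1, with Abcd2 at -4.32 ± 0.22. Beside both lists, 1.69% of all genes were lower and 2.11% higher in vehicle, and 6.1% lower and 10% higher after stimulation. Treatment of controls lowered 34.7% of all genes and raised 32%.

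Among regulators of the pathway, 13 of 16 could be tested. Ppara, the receptor best known for driving these genes in liver, was at 0 to 0.108 CPM in every library and was not tested. Ppard, its relative, had 2.91, 3.29 and 3.69 CPM in vehicle controls and 9.001, 9.98 and 9.64 CPM after stimulation (1.54 ± 0.12). In the libraries labelled knockout it had 4.51, 3.94 and 4.29 CPM, then 7.65, 7.43 and 7.46 CPM (0.83 ± 0.12), and the responses differed by -0.71 ± 0.17 (edgeR adjusted p = 0.0224). The response of Pparg was -4.11 ± 0.14 in controls and -4.47 ± 0.14 in the libraries labelled knockout.

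Of the coactivators, Ppargc1a fell from 3.14, 3.87 and 2.98 CPM to 0.211, 0.216 and 0.207 CPM in controls, and from 5.03, 5.41 and 4.00 CPM to 0.824, 0.759 and 0.578 CPM in the libraries labelled knockout. It was the 1 regulator higher in the libraries labelled knockout after stimulation (1.73 ± 0.37, edgeR adjusted p = 0.0051), at levels of less than 1 CPM. Ppargc1b fell by 1.47 ± 0.17 in controls and did not differ past the threshold between genotypes. Ucp2, an inner-membrane carrier, was the 1 regulator lower after stimulation (-0.49 ± 0.09), and in vehicle Pparg was the 1 called. Each of these single calls was 7.69% of the 13 regulators tested. Over all genes 10% were higher and 6.1% lower after stimulation, and 3.8% were called in vehicle.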

How the data were processed

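Each of the 12 libraries had a deposited table of 41388 Ensembl genes with the authors' raw count per gene, CPM (count scaled to the library total) and RPKM (CPM per kilobase of exon), per the file headers; the deposited counts were whole, and the deposited CPM and RPKM were recomputed from them to rounding error and not used further. Per the submitters' processing notes, bcl2fastq 2.0, STAR 2.0.4b, Subread and featureCounts 1.45 were used with GRCm38; the sources used here do not state the options, the annotation release or strand handling. Total RNA was purified on columns and made into libraries with a SMARTer kit, per the labels.

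Groups came from the sample titles, and 40254 of the gene IDs were matched to a symbol. Counts were tested with edgeR 4.0.16 (R 4.3.3; limma 3.58.1): filterByExpr by group (minimum count 10, minimum total 15), TMM scaling, and the robust quasi-likelihood F-test on 1 mean for each of the 4 groups, with Benjamini-Hochberg adjustment over 12914 genes and a threshold of 0.05. SE is the log2 difference over the square root of F. Printed CPM are TMM-scaled and printed RPKM are those CPM per kilobase of exon. The fit was tested on simulated counts. Alternatives were RLE and total-count scaling, DESeq2 1.42.0, no filter, only the groups compared, a replicate block, and each library left out. The 2 libraries of any pair in a group differed by more than sampling noise. A gene's shared sequence was measured as 50-base stretches of its transcripts found in other genes of GENCODE M21. The depth of 17960457 to 22696385 counts limits precision for genes near 1 CPM, such as Ehhadh.

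Members and lists were chosen with earlier results of these data known. Values in every library are given for members called between genotypes or in the interaction and for the 4 with the largest absolute response in controls. From other lists, up to 4 genes with the smallest p were named per genotype comparison and up to 2 per treatment comparison, and Pparg, Ppara, Ppard, Ppargc1a and Ppargc1b always; 1 gene that this rule names is not reported here.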

Additional observations from a re-analysis of the deposited data

Results flagged for a closer look

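The response to palmitate plus LPS differed between genotypes, by the interaction term of the edgeR quasi-likelihood fit, for 14 genes of the pathway lists. They were 8 of 32 members, 1 of 11 entry, binding and activation genes and 1 of 10 other mitochondrial oxidation genes. Of 16 other peroxisomal oxidation genes 1 was higher and 2 lower, and of 13 regulators 1 was lower. Peroxisome assembly genes (16) and dehydrogenases of amino acid breakdown (4) had 0. Over all genes 8.05% were called. In the libraries labelled knockout the response was higher for Cpt1a (1.15 ± 0.17, adjusted p = 0.0012), Phyh (0.65 ± 0.15, adjusted p = 0.0186), Hadhb (0.65 ± 0.16, adjusted p = 0.0202), Hadha (0.52 ± 0.10, adjusted p = 0.00786) and Acadl (0.46 ± 0.09, adjusted p = 0.00848). It was lower for Hacl1 (-0.96 ± 0.20, adjusted p = 0.0113), Dbi (-0.82 ± 0.23, adjusted p = 0.0431), Ppard (-0.71 ± 0.17, adjusted p = 0.0224), Echs1 (-0.70 ± 0.14, adjusted p = 0.00899), Eci1 (-0.63 ± 0.14, adjusted p = 0.0157), Hadh (-0.54 ± 0.15, adjusted p = 0.0355), Crat (-0.48 ± 0.12, adjusted p = 0.0294), Oxct1 (-0.42 ± 0.10, adjusted p = 0.0216) and Cat (-0.40 ± 0.11, adjusted p = 0.038). The Hadh and Crat calls were each lost in 8 of 17 other settings, and the Hadhb call in 4. Phyh went from 57.2 ± 0.565 to 33.3 ± 3.14 CPM in controls and from 59.0 ± 10.2 to 54.0 ± 1.93 CPM in those labelled knockout. In vehicle, Dbi stood at 268, 159 and 149 CPM in libraries labelled knockout, with the high value in the library that stood apart.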

How the results depend on the processing

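No called member changed direction in any of the 18 other settings (17 for the interaction, which needs all 4 groups). Counts of members moved as follows. Total-count scaling left 0 members higher between stimulated genotypes, and so 0 mitochondrial members. Without a filter on low counts, the peroxisomal Acaa1a was lower in vehicle, and higher both in the treatment of libraries labelled knockout and in the interaction. Each of these comparisons uses the vehicle library that stood apart, where Acaa1a had 13.8 CPM against 46.8 and 52.0 CPM in its group mates. With only the groups compared, 1 peroxisomal member was higher between stimulated genotypes. The replicate block left 2 members lower in the interaction. Replicate numbers did not pair the libraries: deviations of same-numbered libraries correlated at -0.309 to 0.067 over 18 pairs. The block moved calls over all genes from 273 higher and 218 lower to 197 and 152 in vehicle, from 1293 and 788 to 994 and 555 after stimulation, and from 607 and 432 to 330 and 184 in the interaction. Fitting only the groups compared gave 114 and 115 in vehicle and 2103 and 1708 after stimulation. DESeq2 gave 840 and 642 in the interaction, and no filter gave 465 and 495 in vehicle, 1553 and 1008 after stimulation and 1087 and 788 in the interaction.

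With each library left out, members lower in vehicle numbered 4 to 7. Between stimulated genotypes 0 to 3 were higher and 5 to 15 lower, mitochondrial 0 to 1 and 3 to 9, peroxisomal 0 to 1 and 1 to 2. In the interaction 3 to 5 were higher and 2 to 6 lower. In the treatment of libraries labelled knockout 0 to 1 peroxisomal members were higher. Over all genes the same fits gave 126 to 358 lower in vehicle, and 794 to 2251 higher and 419 to 1829 lower between stimulated genotypes. In the interaction they gave 276 to 1023 higher and 152 to 939 lower over all genes. In the treatment of libraries labelled knockout they gave 4131 to 4599 higher. The causes were not tested.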

Other observations

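In controls palmitate plus LPS raised 6 of 16 peroxisome assembly genes (37.5%) and lowered 3 (18.8%), with a median of 0.06. Over all genes 32% rose and 34.7% fell, with a median of -0.05. Pex5, the import receptor, rose by 0.44 ± 0.11 and Pex14, its docking partner, by 0.43 ± 0.11. Between genotypes 2 of 16 genes were lower in vehicle, and those 2 alone were lower after stimulation, and by edgeR 0 were higher (0 in vehicle and 1 after stimulation at an unadjusted p below 0.05). They were Pex11a (-0.70 ± 0.13 in vehicle and -0.49 ± 0.13 after stimulation) and Pex11g (-0.60 ± 0.13 and -0.84 ± 0.15), both of which encode peroxisome division factors. The 2 were 12.5% of the list, against 1.69% of all genes lower in vehicle and 6.1% after stimulation.

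The acyl-CoA dehydrogenases of amino acid breakdown, which pass electrons to the same flavoprotein, fell with treatment in controls, 4 of 4 with a median of -0.80. Over all genes 34.7% fell. Ivd, of leucine breakdown, fell by 1.39 ± 0.08 and Gcdh, of lysine breakdown, by 1.22 ± 0.09. Between genotypes 0 of the 4 were called by edgeR in vehicle or after stimulation, and 0 at an unadjusted p below 0.05. Over all genes edgeR called 3.8% and 16.1%.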
